A study of Homo sapiens with 4 samples.

Results

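The genes followed here encode non-integrin receptors of the platelet surface, and their RNA was measured in K562 cells. They are GP1BA, GP5, GP6, GP9, CLEC1B, F2R, P2RY1, PEAR1, CD36 and CD226. They were chosen by name, with earlier results of these data known, and all 10 were found among the 25702 genes of the count files. The gene lists used below were chosen likewise. Counts of called genes set beside shares over all genes are therefore descriptions only. K562 is a long-established line of human myeloid leukemia cells, and the 4 libraries came from untreated cells. In 2 of them the cells carried the empty LeGO-iG2 vector, labelled control, and in the other 2 the same plasmid with RUNX1::ERG, a fusion of the transcription factor genes RUNX1 and ERG. The plasmid also expresses green fluorescent protein, it was introduced by transient nucleofection, and the methods describe no sorting of K562 cells before RNA extraction, so each library may mix transfected and untransfected cells. The comparison asks how the RNA of these receptors differed when the fusion was expressed.

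Platelets have no nucleus, so their receptors are made from RNA of the megakaryocyte, the bone marrow cell that sheds them. At a wound, the GPIb-IX-V complex catches von Willebrand factor, GPVI and CLEC-2 signal through tyrosine kinases after binding collagen or podoplanin, and the receptors for thrombin and ADP signal through G proteins. These inputs converge on the activation of the platelet integrin. K562 cells have erythroid features and can take on megakaryocytic ones, and some of the 10 genes are also used by other cells, for example CD36 by monocytes, PEAR1 by endothelium and CD226 by T and NK cells.

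Library totals ran from 59695387 to 82352144 counts. ERG, which checks the labels, had 4 counts in each empty vector library, 80443 in RUNX1::ERG replicate 1 and 27218 in replicate 2, so the level of the fusion RNA differed between these replicates. In normalized CPM (counts scaled to a common library size by TMM, and given as CPM), the ratio of replicate 1 to replicate 2 was 2.52 for ERG with the fusion. The standard deviation of log2 differences over tested genes was 0.59 between the empty vector libraries, 0.48 between the RUNX1::ERG libraries and 0.75 to 0.83 across groups. The erythroid genes that mark K562 were abundant. The list of 12 identity genes, with GATA1, the fetal and embryonic globins and TFRC, summed to 12277 and 12988 CPM with the empty vector. With RUNX1::ERG it summed to 14594 and 13492 CPM. The largest part was HBE1, at 6617 and 6394 CPM against 8412 and 7318 CPM. Of the 12 genes 9 were fitted higher, but HBZ was at -0.59 and TFRC at -0.57 on the log2 scale. In edgeR 1 gene, EPOR (0.87), was called higher and 0 lower (3.64% and 1.15% over all genes). DESeq2 called 2 higher and 1 lower (7.82% of all genes in either direction). In bulk RNA a difference in the share of cells with a transcript and a difference in RNA per cell cannot be told apart.

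The stretches before the gene starts are shown for 5 of the receptor genes, because the fusion holds the DNA-binding domains of a Runt and an ETS factor and these genes differ in what happened to their RNA: PEAR1 and CD226 rose, GP6 and P2RY1 did not pass the test, and GP9 had counts at or near 0. The sequences are from RefSeq on GRCh38.p14, each ending at or just before a listed start, and for CD226 the start that lies farther into the gene was taken. A stretch of PEAR1 inside an annotated exon was left off. Capitals mark 3 searched strings on either strand, none of which contains another. They are the ETS string AGGAAG with its reverse complement CTTCCT, the Runt string TGTGGT with its reverse complement ACCACA, and the GATA string AGATAA with its reverse complement TTATCT. The ETS string is 1 longer form of the ETS core GGAA, which is not marked.
PEAR1 (chr1:156893468-156893697, + strand): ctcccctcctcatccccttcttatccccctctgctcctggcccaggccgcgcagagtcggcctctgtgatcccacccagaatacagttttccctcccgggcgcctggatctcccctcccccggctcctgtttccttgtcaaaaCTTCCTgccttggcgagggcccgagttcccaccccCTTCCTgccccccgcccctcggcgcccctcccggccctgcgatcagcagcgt
CD226 (chr18:69947874-69948123, - strand): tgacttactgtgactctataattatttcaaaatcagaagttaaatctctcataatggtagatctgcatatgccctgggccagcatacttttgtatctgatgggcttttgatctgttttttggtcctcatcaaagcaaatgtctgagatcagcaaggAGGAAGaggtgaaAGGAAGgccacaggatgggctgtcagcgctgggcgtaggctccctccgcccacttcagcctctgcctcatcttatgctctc
GP6 (chr19:55038265-55038514, - strand): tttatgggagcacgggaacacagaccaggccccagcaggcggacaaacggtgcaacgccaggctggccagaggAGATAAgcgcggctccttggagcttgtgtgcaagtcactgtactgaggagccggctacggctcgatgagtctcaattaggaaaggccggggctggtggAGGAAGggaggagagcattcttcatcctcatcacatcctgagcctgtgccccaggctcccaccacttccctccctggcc
P2RY1 (chr3:152834881-152835130, + strand): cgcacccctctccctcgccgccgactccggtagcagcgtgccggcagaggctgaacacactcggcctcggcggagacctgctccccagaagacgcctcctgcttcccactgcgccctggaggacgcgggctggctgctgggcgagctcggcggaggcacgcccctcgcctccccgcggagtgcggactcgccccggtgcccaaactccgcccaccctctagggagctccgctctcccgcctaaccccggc
GP9 (chr3:129060529-129060778, + strand): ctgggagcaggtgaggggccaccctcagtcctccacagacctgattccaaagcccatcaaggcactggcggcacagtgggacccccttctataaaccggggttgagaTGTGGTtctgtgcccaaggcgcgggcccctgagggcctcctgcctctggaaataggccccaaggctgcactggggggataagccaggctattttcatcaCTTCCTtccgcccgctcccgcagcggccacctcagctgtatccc
In the 250 bases before a listed start, 28.7% of the 35116 windows of the table held the ETS string, 11% the Runt string and 9.2% the GATA string. The shorter core GGAA was in 92.7% of them. The table matched 8 of the 10 genes, F2R and GP1BA being the others, with 14 windows in all. Of the 14 windows, 8 held the ETS string, 3 the Runt string and 3 the GATA string. Genes can have several windows, 6 for CD36. Counted by gene, at least 1 window held the ETS string for 7 of the 8. No share by gene was computed over all genes, so this count has no background here. P2RY1 had none of the 3 strings, though it held 1 GGAA core. PEAR1 had 2 ETS strings at 107 and 72 bases before the start, and CD226 had 2 ETS strings at 94 and 81 bases before the start shown. GP6 held an ETS string at 79 and a GATA string at 177 bases before its start. GP9, with at most 2 counts in a library, held both an ETS and a Runt string, and CLEC1B, with at most 1 count, held 3 ETS strings, a Runt and a GATA string. The strings were thus found in windows of genes with and without RNA here, and a match is no evidence that a factor binds.

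The receptor genes fell into 3 ranges of level. F2R, P2RY1, GP6 and PEAR1 were expressed in the empty vector cells, GP1BA, CD36 and CD226 were between 0.531 and 4.85 CPM there, and GP5, GP9 and CLEC1B were at or near 0. Per kb of the canonical transcript in GENCODE v44, mean levels with the empty vector were 11.7 CPM for GP6, 8.91 for F2R, 6.87 for P2RY1 and 4.23 for PEAR1. GP6 was first and F2R second in empty vector replicate 1, and the order of the pair turned in replicate 2, so the levels of these neighbours did not differ beyond their spread. With RUNX1::ERG, F2R was first in both libraries at a mean of 24.9 CPM per kb, followed by GP6 at 16.9, P2RY1 at 8.02 and PEAR1 at 7.84. GP1BA, CD226 and CD36 had 0.329, 0.317 and 0.198 CPM per kb with the empty vector, and their order changed between its replicates. The transcript model of CD226, with 12518 bases, is the longest of the 10 and lowers its value per kb. Before division by length its mean with the empty vector was 3.96 CPM, against 20.6 CPM for PEAR1. The summed level of the 10 genes was 132 and 127 CPM with the empty vector and 232 and 230 CPM with RUNX1::ERG, and the part of F2R in that sum was 22.9% and 28.5% against 37.9% and 42.5%.

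**Figure D1:**
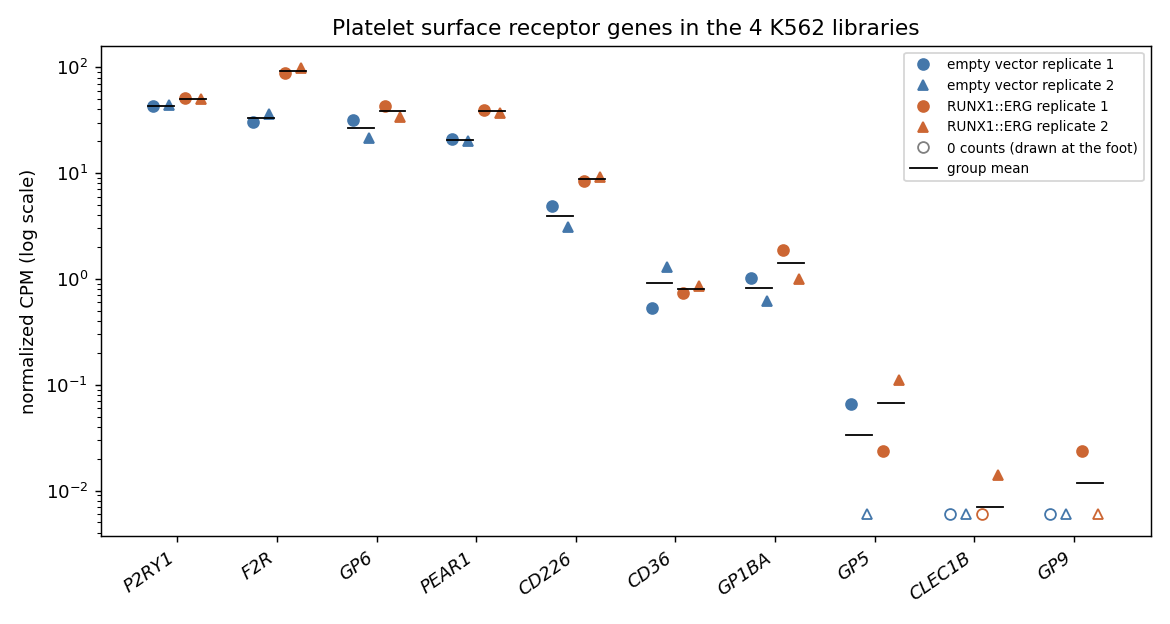
Normalized CPM on a log axis for each of the 10 receptor genes in each library (circles, replicate 1; triangles, replicate 2), with lines at group means and open symbols at the foot for 0 counts. Both RUNX1::ERG libraries lie above both empty vector libraries for F2R, PEAR1, CD226, GP6 and P2RY1, as for 25.1% of all genes tested. GP6 and P2RY1 did not pass the test, and GP9 and CLEC1B have counts in 1 library each.

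F2R, PEAR1 and CD226 rose with RUNX1::ERG, by 2.80, 1.85 and 2.21 times, and no receptor gene fell. These are 3 of the 7 genes that passed edgeR's filter on low counts, against 3.64% called higher among all 15394 genes tested and 4.79% called in either direction. The test was edgeR's quasi-likelihood test at an adjusted p under 0.05. Without RUNX1::ERG replicate 1 the count was 1, F2R, where 2.3% of all genes were called, and with library totals it was 2. With library totals 4.01% of all genes were called in either direction. For falls the background was 1.15%, with 0 receptor genes lower at that threshold, 0 at an unadjusted p under 0.05 and 0 by DESeq2. The median log2 fold change of the 7 was 0.80, against 0.00 over all genes tested. Each of the 7 had at least 32 counts in every library, so none entered through 1 group alone. Both RUNX1::ERG libraries lay above both empty vector libraries for 5 of the 7, against 25.1% of all genes tested. GP5, GP9 and CLEC1B did not reach the filter, and none of them exceeded 8 counts.

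F2R (NCBI gene 2149, GRCh37 chr5:76011951-76031595, + strand) encodes PAR1, the main thrombin receptor of human platelets, which thrombin switches on by cutting its outer end. It had 1829 and 2543 counts in the control libraries, and 7408 and 7037 in those with the fusion. In normalized CPM these were 30.4 and 36.1 against 87.9 and 97.9. Both fusion libraries were high and close to each other, although replicate 1 held more ERG. The mean rose from 33.2 ± 4.03 to 92.9 ± 7.09 CPM (SD, n = 2), which on the log2 scale is 1.48 with a standard error of 0.17 (edgeR adjusted p = 7.6e-04). Leaving out each library gave values from 1.36 to 1.61, all past the threshold.

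F2R lies in a cluster with other genes for protease-activated receptors, which was examined after its values were seen. F2RL2, which encodes PAR3 and starts 92.7 kb from F2R on the other strand, had 32 and 26 counts with the empty vector and 1624 and 1260 with RUNX1::ERG. It rose by 5.36 on the log2 scale, with a standard error of 0.30 (edgeR adjusted p = 5.5e-06). It sits inside the span of IQGAP2, a scaffold gene on the opposite strand, whose level was 40.6 ± 1.70 and 39.1 ± 6.55 CPM (SD, n = 2) and whose log2 fold change was -0.06. F2RL1, which encodes PAR2, a receptor for trypsin-like proteases, starts 102.8 kb beyond F2R and had 4 and 12 counts against 42 and 49. It did not pass the test (log2 fold change 2.28, adjusted p = 0.080 in edgeR), but did so without empty vector replicate 2 (3.11, adjusted p = 0.012) and without the filter on low counts (2.26, adjusted p = 0.015). The former rests on a control with 4 counts, and with each of the other libraries left out it was between 1.78 and 2.49, with adjusted p-values from 0.14 to 0.31 in edgeR. Of the other protein-coding genes within 500 kb, AGGF1 and PDE8B were tested, at -0.39 (edgeR adjusted p = 0.32) and -0.83 (0.39) on the log2 scale. F2RL3, which encodes PAR4, the second thrombin receptor of platelets, is on another chromosome. It had 34.4 and 47.6 CPM with the empty vector and 50.9 and 46.9 CPM with the fusion, so the groups overlapped, and its log2 fold change was 0.25 (95% interval -0.17 to 0.68, adjusted p = 0.56 in edgeR). Per kb, F2RL3 was the higher of the pair with the empty vector, at 10.3 and 14.3 CPM against 8.15 and 9.68 for F2R, and F2R was the higher with RUNX1::ERG, at 23.6 and 26.3 against 15.3 and 14.1. Whether their changes differ was not tested.

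**Figure D2:**
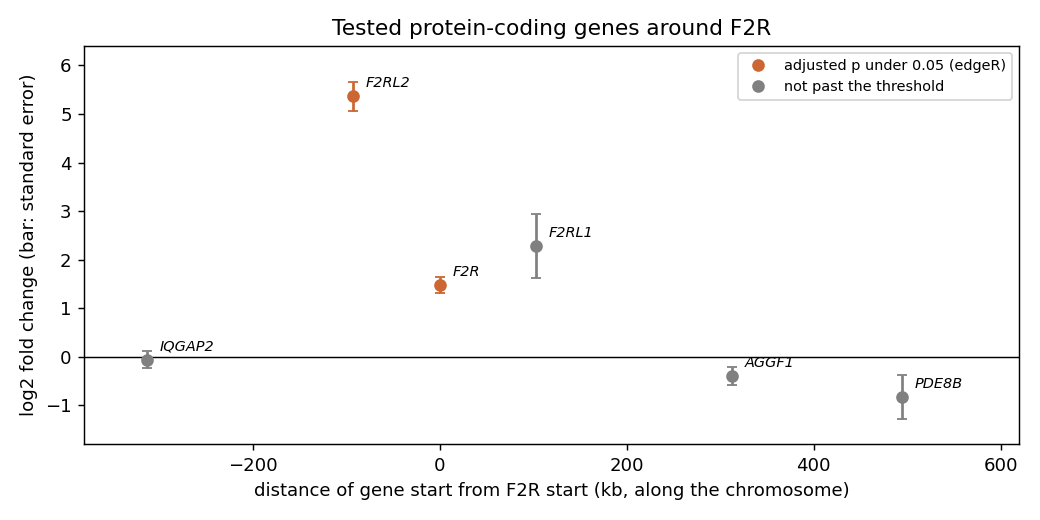
Log2 fold change with its standard error for the tested protein-coding genes around F2R, against the distance of each gene start from that of F2R in kb. F2RL2 at 5.36 and F2R at 1.48 passed the threshold, F2RL1 at 2.28 did not, and IQGAP2, AGGF1 and PDE8B lie between -0.83 and -0.06.

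P2RY1 (NCBI gene 5028, GRCh37 chr3:152552920-152559228, + strand) encodes the ADP receptor coupled to Gq that starts platelet shape change. It was the steadiest of the expressed receptor genes, with 43.0 and 43.7 CPM in the empty vector libraries and 51.0 and 50.2 CPM in the RUNX1::ERG libraries. The groups did not overlap, yet the log2 fold change of 0.22 (95% interval -0.13 to 0.58) had an adjusted p of 0.54 in edgeR. P2RY12, the other ADP receptor of platelets, coupled to Gi, had 0 counts in all 4 libraries, which allows up to 3 counts or 0.0503 CPM in the smallest library. P2RX1, an ATP-gated channel of platelets, rose from 12.8 ± 4.39 to 34.7 ± 12.9 CPM (SD, n = 2; log2 fold change 1.44, adjusted p = 0.021 in edgeR), and this call was lost without RUNX1::ERG replicate 1 (1.00, adjusted p = 0.092).

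GP6 (NCBI gene 51206, GRCh37 chr19:55525073-55549632, - strand) encodes GPVI, the collagen receptor. Its counts were 1911 and 1509 with the empty vector and 3601 and 2428 with RUNX1::ERG, or 31.7 and 21.4 CPM against 42.7 and 33.8 CPM. The empty vector library with the higher value was close to the lower fusion library, and the log2 fold change of 0.53 (standard error 0.22) had an adjusted p of 0.24 in edgeR. It ranged from 0.27 (adjusted p = 0.64) without empty vector replicate 2 to 0.84 (adjusted p = 0.014) without empty vector replicate 1, the 1 left-out library with which it passed. With a replicate block GP6 passed, at 0.54 on the log2 scale (adjusted p = 0.043 in edgeR), but the labels tie a replicate number to no batch or day. A long noncoding gene on the same strand shares 270 of the 2703 exon bases of GP6. It was not matched among the counted genes, so some GP6 reads may belong to it. The neighbouring gene on that strand, RDH13, was at 62.5 ± 6.85 CPM and 57.6 ± 3.72 CPM (SD, n = 2), a log2 fold change of -0.12.

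GPVI reaches the platelet surface together with the Fc receptor gamma chain, encoded by FCER1G, which carries its signalling motif. FCER1G had 4 and 8 counts in the empty vector libraries against 494 and 299 with RUNX1::ERG, a rise of 5.75 on the log2 scale with a standard error of 0.46 (edgeR adjusted p = 7.3e-05). Per kb, FCER1G was at 0.113 and 0.192 CPM with the empty vector, where GP6 was at 14.0 and 9.43, and at 9.93 and 7.05 CPM with the fusion, where GP6 was at 18.8 and 14.9. The RNA of the receptor was therefore present in both groups, and that of its partner chain was close to 0 in 1 of them. COL1A1, a collagen chain, rose as well, from 3.88 ± 0.366 to 20.8 ± 1.75 CPM (SD, n = 2; log2 fold change 2.42, adjusted p = 2.0e-04 in edgeR).

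**Figure D3:**
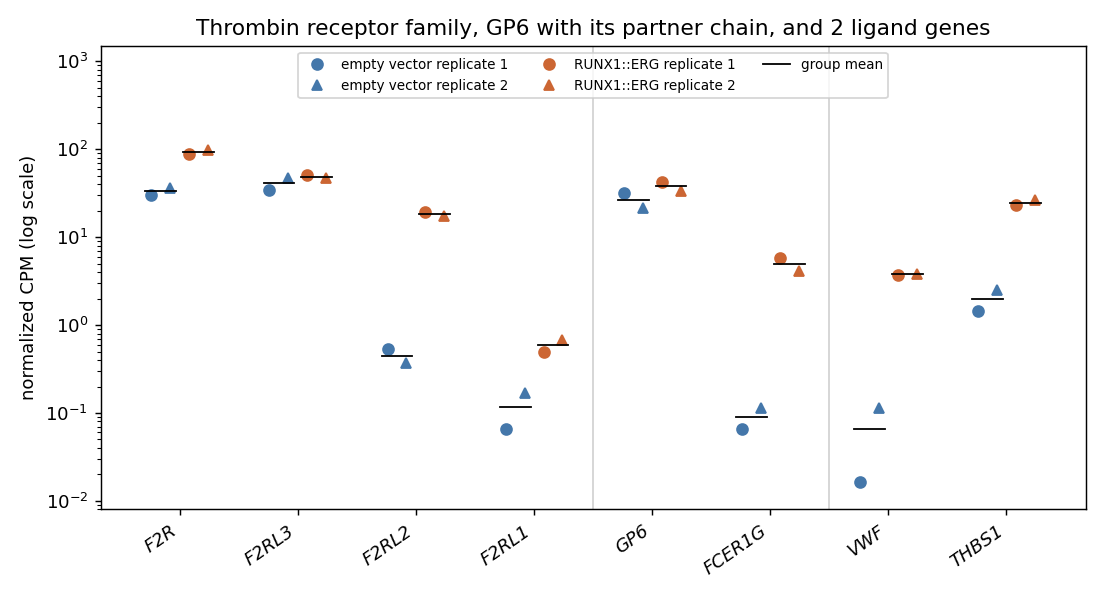
Normalized CPM on a log axis in each library for the genes of the protease-activated receptors, GP6 with its partner FCER1G, and the ligand genes VWF and THBS1, with lines at group means. F2RL2, FCER1G, VWF and THBS1 have both RUNX1::ERG points above both control points, while the groups overlap for F2RL3.

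CLEC1B (NCBI gene 51266, GRCh37 chr12:10138241-10166023, - strand) encodes CLEC-2, the podoplanin receptor, and had 0 counts in 3 libraries and 1 count in RUNX1::ERG replicate 2. PDPN, which encodes podoplanin, had 0 counts with the empty vector and 2 and 6 with the fusion. Neither gene passed the filter on low counts, and without it CLEC1B had an adjusted p of 0.86 in edgeR.

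The GPIb-IX-V complex needs several chains, and its RNA was incomplete in both groups. GP1BA (NCBI gene 2811, GRCh37 chr17:4835572-4838318, + strand), the chain that binds von Willebrand factor, had 62 and 44 counts with the empty vector and 158 and 71 with RUNX1::ERG. In CPM these were 1.03 and 0.624 against 1.87 and 0.988, so the lower fusion library fell within the range of the controls. The log2 fold change of 0.80 (95% interval -0.23 to 1.83) had an adjusted p of 0.42 in edgeR, and without RUNX1::ERG replicate 1 it was 0.26. An antisense gene, CHRNE, shares 3.9% of its exon bases and had at most 20 counts in a library. GP9 (NCBI gene 2815, GRCh37 chr3:128779622-128781249, + strand) had 2 counts in RUNX1::ERG replicate 1 and 0 in the other 3 libraries. GP5 (NCBI gene 2814, GRCh37 chr3:194115550-194119995, - strand) had 4 and 0 counts against 2 and 8. GP1BB, the remaining chain, had 0 counts in all 4 libraries. VWF, the ligand, went from 1 and 8 counts to 311 and 277 counts, or from 0.0166 and 0.113 CPM to 3.69 and 3.85 CPM (log2 fold change 5.76, edgeR adjusted p = 4.0e-04). Leaving out empty vector replicate 2 gave 7.68, a value that depends on the prior count since the remaining control holds 1 count.

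PEAR1 (NCBI gene 375033, GRCh37 chr1:156863490-156886221, + strand) encodes a receptor with epidermal growth factor repeats that is phosphorylated when platelets touch each other. Its counts were 1257 and 1435 with the empty vector and 3316 and 2668 with RUNX1::ERG. The CPM values of 20.9 and 20.3 against 39.3 and 37.1 left a wide gap between the groups, with little spread within either. On the log2 scale the rise was 0.89, with a standard error of 0.18 (edgeR adjusted p = 0.017). Its size ran from 0.85 to 0.92 with each library left out, and the call was lost without RUNX1::ERG replicate 1 (adjusted p = 0.087).

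CD226 (NCBI gene 10666, GRCh37 chr18:67498394-67629039, - strand) encodes DNAM-1, an adhesion receptor of platelets and lymphocytes. It had 292 and 217 counts with the empty vector and 707 and 654 with RUNX1::ERG, or 4.85 and 3.08 CPM against 8.39 and 9.10 CPM. Both fusion libraries were above both controls, which differed between themselves by 1.58 times. The log2 fold change of 1.14 (standard error 0.28) was close to the threshold, with an adjusted p of 0.046 in edgeR. The call was lost with scaling by library totals (adjusted p = 0.062) and without empty vector replicate 2 (0.85, adjusted p = 0.079), RUNX1::ERG replicate 1 (1.20, adjusted p = 0.12) or RUNX1::ERG replicate 2 (1.07, adjusted p = 0.13). Its ligands were expressed in both groups. NECTIN2 was at 109 ± 9.43 and 142 ± 21.0 CPM and PVR at 21.7 ± 1.08 and 27.5 ± 1.63 CPM (SD, n = 2), with adjusted p-values of 0.26 and 0.36 in edgeR. The list of 13 T and NK cell markers summed to 43.4 and 45.9 CPM with the empty vector and to 44.6 and 41.9 CPM with the fusion, and KLRD1 and CD8A were at 0 in all 4 libraries. Its 8 tested genes went in both directions, with log2 fold changes from -2.21 to 4.48, 4 of them above the controls in both fusion libraries and 2 below. Called genes were 2 higher and 0 lower in edgeR (3.64% and 1.15% over all genes). DESeq2 called 3 higher and 1 lower (7.82% of all genes in either direction), and limma voom 1 higher and 0 lower (4.47%). GNLY, called higher in edgeR, had 6 and 0 counts in the controls and 106 and 66 with the fusion. Of the 5 genes with 10 or more counts in each library, 1 was called higher in edgeR (4.51% of all genes in either direction). The part of T and NK cell genes in the values of CD226 was not tested.

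CD36 (NCBI gene 948, GRCh37 chr7:79998891-80308593, + strand) encodes a receptor for thrombospondin and lipids. It had 32 and 91 counts with the empty vector and 62 in each fusion library, or 0.531 and 1.29 CPM against 0.735 and 0.862 CPM. The fusion libraries lay between the controls, and the log2 fold change of -0.20 (95% interval -1.31 to 0.92, adjusted p = 0.90 in edgeR) was 0.59 without empty vector replicate 2. THBS1, its ligand thrombospondin 1, rose from 1.97 ± 0.743 to 24.8 ± 1.98 CPM (SD, n = 2; log2 fold change 3.65, adjusted p = 7.3e-05 in edgeR). The list of 13 monocyte markers summed to 9.18 and 11.1 CPM with the empty vector and to 23.9 and 21.6 CPM with RUNX1::ERG. LYZ made up most of the sum, at 6.97 and 9.90 CPM against 18.1 and 18.7 CPM. Of its 7 tested genes 6 were fitted higher, and 2, LYZ and CD14, were called higher (3.64% over all genes). ITGAM was at -0.99 on the log2 scale. FCGR3A, not tested, had 42 and 10 counts with the empty vector and 8 and 3 with the fusion. CD163 and MARCO were at 0 in all libraries. The part of monocyte genes in the values of CD36 was not tested.

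**Figure D4:**
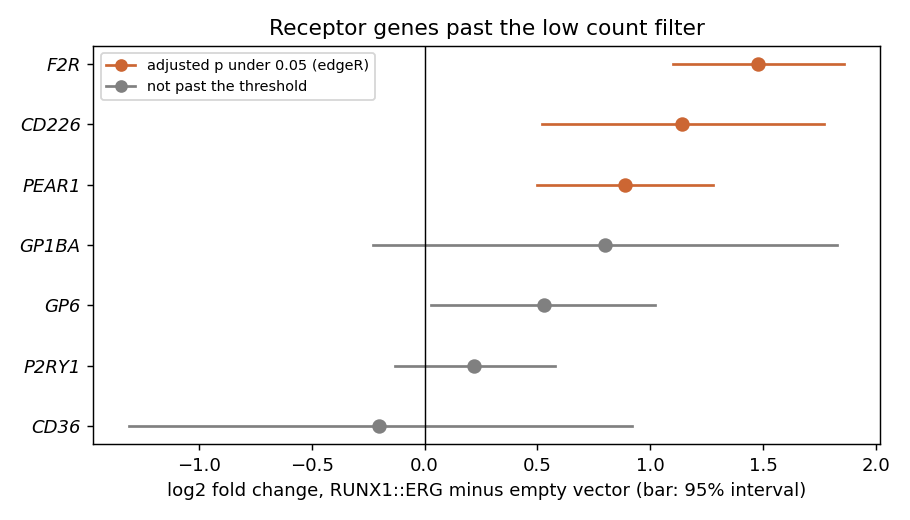
Log2 fold change of RUNX1::ERG over the empty vector with its 95% interval for the 7 receptor genes past the low count filter. F2R, CD226 and PEAR1 passed the threshold in edgeR, and the intervals of GP1BA, P2RY1 and CD36 include 0.

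Among 13 genes for ligands of these receptors, 8 were tested and VWF, THBS1 and COL1A1 were called higher (3.64% over all genes). Of the 5 with 10 or more counts in each library, 2 were called higher, against 4.51% of all genes called in either direction under that filter, and VWF was not among these 5. Other non-integrin receptors of platelets were taken from a list of 41 genes. Of these, 28 passed the filter on low counts and 9 rose, against 3.64% called higher among all genes tested. None fell, against 1.15%, with 0 lower in edgeR, 0 at an unadjusted p under 0.05 and 0 by DESeq2. The filter admits genes that are high in 1 group only. Of the 25 genes with 10 or more counts in each library, 8 were called under that stricter filter (4.51% of all genes in either direction). The other 13 genes had at most 23 counts in a library. Beside FCER1G, F2RL2 and P2RX1, the rises included CD93 (log2 fold change 3.45), the adhesion receptor PECAM1 (2.96), the prostacyclin receptor PTGIR (2.40), the adhesion receptor CD84 (1.85) and CD47 (1.27), a signal against phagocytosis that also binds thrombospondin. Their adjusted p-values in edgeR were 4.9e-04, 5.8e-05, 0.0090, 0.0020 and 0.0012. That of PTGIR was 0.082 without RUNX1::ERG replicate 1, at a log2 fold change of 1.73.

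The signalling genes that act below these receptors were taken from a list of 55, of which 53 were tested, with a median log2 fold change of 0.21. Of these 8 rose and 1 fell, against 3.64% called higher and 1.15% called lower over all genes, and a single fall among 53 is near that background. SRC, a kinase that phosphorylates receptor motifs, rose most, from 10.6 ± 1.66 to 72.4 ± 13.2 CPM (SD, n = 2; log2 fold change 2.77, adjusted p = 5.8e-05 in edgeR). PLCB2, a phospholipase below Gq, rose by 2.01 on the log2 scale. LCP2, the adaptor SLP-76 of the GPVI and CLEC-2 pathways, rose by 1.23 and PIK3CG, a lipid kinase driven by G proteins, by 1.11. CBLB, TEC, FERMT3 and GNAI2 rose by 1.04, 0.80, 0.82 and 0.69. Their adjusted p-values in edgeR were 0.0025, 0.0044 and 0.0030 for the first 3 and 0.020, 0.036, 0.013 and 0.035 for the last 4, and each of the last 4 missed the threshold with at least 1 library left out. ITPR3, a calcium release channel, fell by 1.13 on the log2 scale (adjusted p = 0.0030 in edgeR). The tyrosine kinase SYK was at 46.1 ± 0.203 and 53.9 ± 1.17 CPM and GNAQ, the alpha chain of Gq, at 26.9 ± 1.99 and 29.5 ± 4.06 CPM (SD, n = 2), and neither passed the test.

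Markers of platelets and megakaryocytes were summed beside the receptor genes that rose. The 12 genes of the list came to 84.0 and 93.1 CPM with the empty vector and to 531 and 458 CPM with RUNX1::ERG, while GP1BB and MPIG6B were at 0 in all libraries. In edgeR 8 were tested and 7 called higher (3.64% over all genes). Some of its genes entered the test through the fusion libraries alone, such as PF4 with 0 and 2 counts in the controls and 874 and 555 with the fusion. Of the 5 genes with 10 or more counts in each library, 4 were called higher, against 4.51% of all genes called in either direction under that filter. The list of 12 endothelial markers, which contains ERG itself, went from 136 and 163 CPM to 1303 and 602 CPM, with EMCN at 0. In edgeR 4 of its 9 tested genes were called higher (3.64% over all genes), ERG being 1 of them. Without ERG, whose reads come with the transfected fusion, the other 11 summed to 349 and 223 CPM with RUNX1::ERG. EGFL7 made up most of this sum, at 131 and 158 CPM in the controls and 318 and 192 CPM with the fusion. It was not called (log2 fold change 0.82, adjusted p = 0.065 in edgeR). Of the 9 tested genes 8 were fitted higher, and TIE1 was at -0.14 on the log2 scale. The untested KDR, TEK and EMCN had at most 2 counts in a library. With 10 or more counts required per library 1 of 5 genes, PECAM1, was called higher (4.51% of all genes in either direction). The list of 8 fibroblast markers, which contains COL1A1, went from 6.29 and 6.86 CPM to 25.1 and 22.5 CPM, with LUM at 0. Of its 4 tested genes COL1A1 was the 1 called higher in edgeR (3.64% over all genes) and made up most of the sum. On the log2 scale COL1A2 was at 0.11, PDGFRB at -1.09 and THY1 at 6.47 (adjusted p = 0.063 in edgeR). THY1 had 0 counts in each control and 14 and 10 with the fusion, and limma voom called 2 genes of the list higher (4.47% of all genes in either direction). Of the 2 genes with 10 or more counts in each library, 1 was called higher in edgeR (4.51% of all genes in either direction). The 5 B cell markers summed to 2.16 and 1.33 CPM and to 1.91 and 1.20 CPM, with MS4A1 at 0. Their part in the rises of F2R, PEAR1 and CD226 was not tested.

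**Figure D5:**
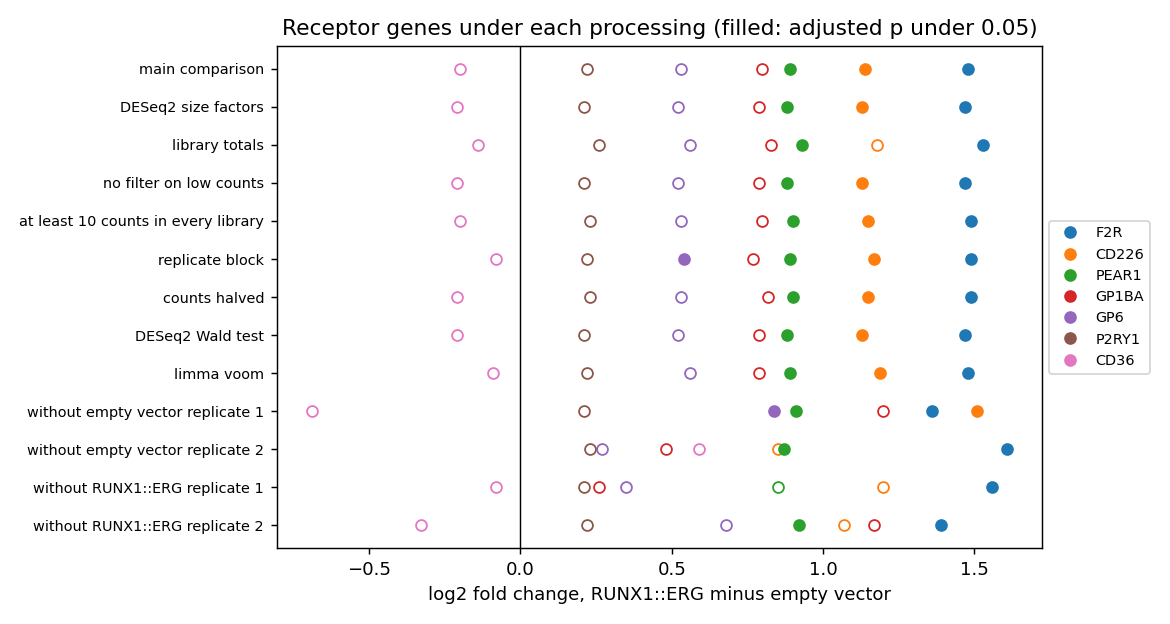
Log2 fold change of the 7 tested receptor genes under the main comparison and each alternative, filled where the adjusted p was under 0.05. F2R stays between 1.36 and 1.61 and is filled throughout, PEAR1 and CD226 each have open symbols, and CD36 lies on the other side of 0 without empty vector replicate 2.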

How the data were processed

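Whole transcriptome sequencing covered 2 biological replicates per group, from poly(A) RNA. Values are read counts for each NCBI gene number as the authors deposited them, without normalization. The submitters' processing notes name HISAT2 2.2.1, featureCounts 2.0.1 and hg19, and the annotation, strand setting and treatment of read pairs are not given in the sources used here. Between 66.7% and 68.9% of counts from 1 to 10 were even, as arises when both mates are counted, so floors of 3 counts cover counting error only and are too low. Replicates differed by more than counting noise (chi-square per degree of freedom 88.7 and 67.6).

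Symbols from RefSeq (GRCh38.p14) matched 92.2% of the 25702 gene numbers, and gene positions are GENCODE v44 on GRCh37. Counts were tested in R 4.3.3 with edgeR 4.0.16: TMM scaling, filterByExpr (15394 genes), the quasi-likelihood test, Benjamini-Hochberg adjustment over all tested genes and a threshold of 0.05. The standard error is the log2 fold change over the root of F. An exact permutation test of 2 against 2 libraries cannot go below p = 0.333. The procedure was tested on simulated data, and no outcome of that is reported here.

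The receptor genes and lists were chosen with earlier results of these data known. All 10 receptor genes and their direct partners were named, and from each list up to 8 called genes per direction, by size. For likeness, 3 genes were named for each of the 3 most abundant receptor genes, by the distance of centred log2 CPM among genes whose mean reached 1 CPM. Of these, 1 is not reported here. Alternatives were other scalings and filters, DESeq2 1.42.0, limma 3.58.1 voom, halved counts, a replicate block and leaving out each library.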

Additional observations from a re-analysis of the deposited data

How the results depend on the processing

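F2R kept its direction and its call in every alternative run. CD36 had a log2 fold change of 0.59 without empty vector replicate 2 and of -0.69 without empty vector replicate 1. Of the receptor genes, 3 were called in the main comparison and between 1 and 4 with each library left out, the 1 being F2R without RUNX1::ERG replicate 1. Without each library the number ran from 7 to 13 for the other platelet receptors (9 in the main comparison) and from 6 to 10 for the signalling genes (9). The calls over all genes moved in the same fits, from 2.3% of genes without RUNX1::ERG replicate 1 to 8.8% without empty vector replicate 2, against 4.79%. These fits assume that the lone library of a group varies like the others. Without the filter on low counts, 15 of 35 other receptors were called, and over all genes the share rose to 7.38%.

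With the replicate block, 4 receptor genes were called, GP6 (0.54, adjusted p = 0.043 in edgeR) being the added one, and 13 other receptors and 16 signalling genes. F2RL1 also passed (2.35, adjusted p = 0.037 in edgeR). The block called 1733 genes in all against 737. Across genes, libraries with one number deviated together (r = 0.27). The labels tie a replicate number to no batch or day, and the libraries were therefore not paired.

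Among named genes, 373 alternative values stayed on their side of the threshold, 13 were weaker and 5 stronger. Over all genes, 1500 were called without the filter and 1204 by DESeq2, and the share called higher was 64.1% and 66.4% against 76.0%. It was 83.3% with library totals, 62.4% with the block and 55.8% without empty vector replicate 2. The causes were not tested. GP5, GP9 and CLEC1B, with at most 8 counts in a library, had adjusted p-values of 0.86, 0.80 and 0.86 in edgeR without the filter. Whether depth limits these genes was not tested.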

Other observations

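Likeness of pattern was measured over the 4 libraries among 12365 other genes, as a description. Genes close to F2R were TMCO4 and COL15A1, at distances of 0.10 and 0.15 on the log2 scale. For P2RY1 the closest were OTUD7B, PLEKHA3 and GDAP1, at 0.01, 0.02 and 0.02, and for GP6 they were CBX7, CATSPER2 and DNAI4, at 0.05, 0.06 and 0.07. With 4 libraries many genes share a pattern by this measure.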
